A study of Drosophila melanogaster with 16 samples.

Results

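Chromatin accessibility was compared between 25 °C and 11 °C at 36 genes that encode regulators of chromatin itself, in fat bodies dissected from adult Drosophila melanogaster. The genes fall into 5 classes, with 12 chromatin remodellers, 7 histone-modifying enzymes, 10 Polycomb and Trithorax genes, 3 heterochromatin genes and 4 insulator genes. A peak was counted for a gene when its midpoint lay within the gene or within 1 kb of either end, using RefSeq gene spans. By this rule 60 of the 8069 peaks in the authors' deposited table belonged to 34 of the 36 genes. No peak was shared between 2 of the 36. No listed peak fell within reach of mor, which encodes a core subunit of the Brahma complex, or of trx, which encodes the Trithorax histone methyltransferase. The nearest listed peaks lay 2364 bp from mor and 2265 bp from trx, and neither was called.

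The flies were virgin females of the genotype w1118, kept for 25 days at 25 °C or at 11 °C, where females can enter a reproductive arrest called diapause. They were collected at most 8 hours after eclosion. Each temperature had flies given ethanol vapour as vehicle and flies given S-methoprene, an analog of juvenile hormone, in ethanol. The treatment was 10 µL every 2 days, of 99% ethanol alone or with 39.4 mM S-methoprene. This makes 4 groups of 4 libraries, 25C ethanol, 25C S-methoprene, 11C ethanol and 11C S-methoprene, each library from the dissected fat body of 25 pooled flies. Flies were picked by their ovaries, which were regressed in 11C ethanol and large in the other 3 groups, so temperature and ovary state cannot be fully told apart. Accessibility was measured by ATAC-seq, in which a transposase cuts open DNA, and reads in a peak count those cuts.

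The authors' deposited table gives, for each peak, the mean number of normalised reads at each temperature and a false discovery rate (FDR) for the difference. It holds no value per library and does not separate ethanol from S-methoprene. Which libraries and vehicle groups entered is not given, so the means may hold both vehicle groups or only one of them. If only ethanol libraries entered, temperature and ovary state would coincide fully. Read numbers below are those temperature means, without a standard error and at a library depth that is unknown here. A difference is the log2 mean reads at 25 °C minus that at 11 °C, and a fold is its antilog. Peaks with an FDR under 0.05 count as called. In the authors' deposited table the mean over all libraries weighs 25 °C against 11 °C as 3 to 4, as 3 against 4 or 6 against 8 libraries would, so at least 2 of the 8 libraries at 25 °C did not enter. Because the fat body was measured in bulk, a changed share of a cell type and a changed accessibility within cells cannot be told apart.

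Chromatin regulators set how tightly DNA is packed. Remodellers use ATP to slide, evict or exchange nucleosomes. Histone acetyltransferases and deacetylases add and remove acetyl marks, Polycomb proteins keep silent genes silent, and Trithorax proteins oppose them. Heterochromatin proteins compact repeat-rich DNA, and insulator proteins separate neighbouring domains. The fat body, the fly's organ of fat storage and yolk protein secretion, uses these proteins as other tissues do.

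Most peaks at the 36 genes differed little between the temperatures, and 11 of the 60 were called. A peak higher at 25 °C was found at 3 genes, the remodeller genes kis and osa and the Polycomb gene ph-p, by 1.54-fold to 2.35-fold. Peaks higher at 11 °C lay at osa, the deacetylase genes HDAC4 and HDAC6, the acetyltransferase gene nej, the Polycomb gene ph-d and the insulator gene BEAF-32, by 1.22-fold to 1.60-fold. The share called was 18.3% of the peaks, against 22.2% of all peaks in the table. In the direction of 25 °C it was 3 of 60, or 5%, against 12.2% of all peaks. In the direction of 11 °C it was 8 of 60, or 13.3%, against 10.0%. No test of the gene list was made, so these shares stand as a description.

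**Figure D1:**
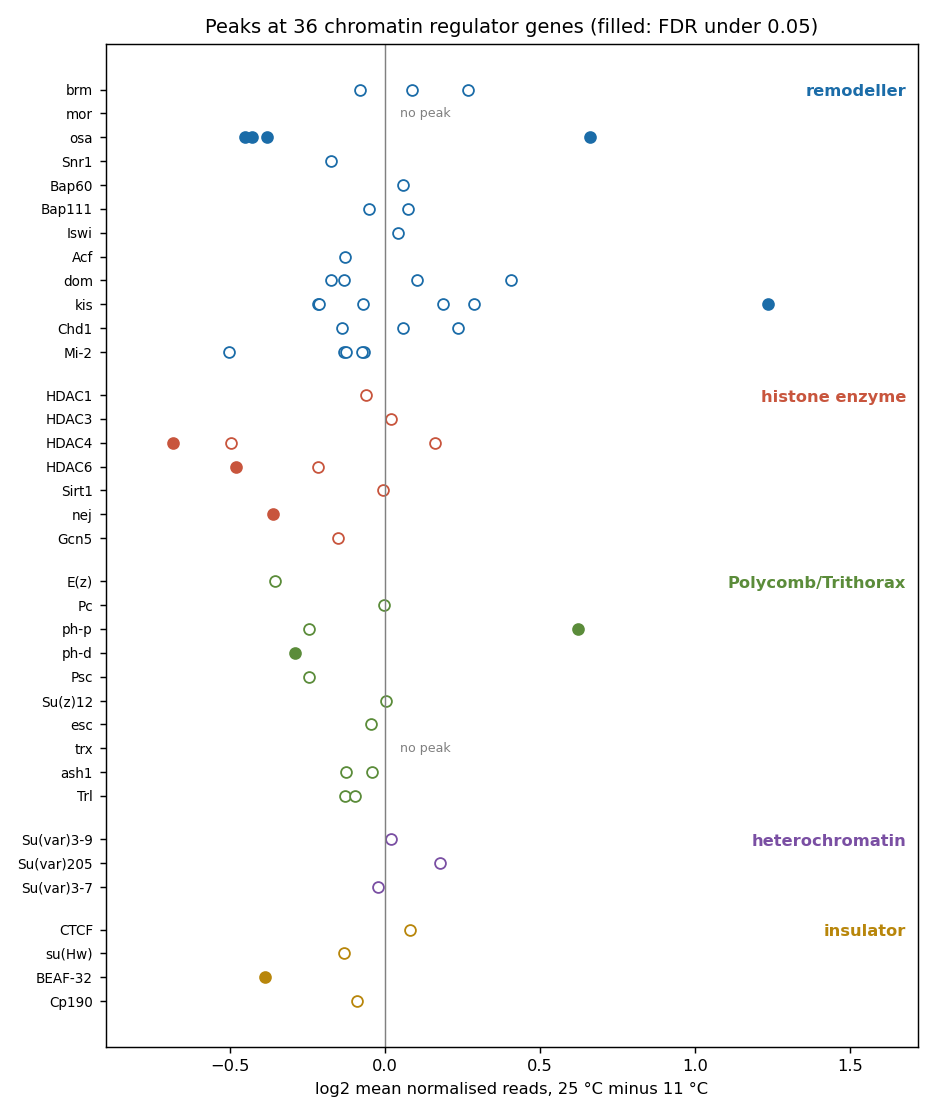
Difference in log2 mean normalised reads (25 °C minus 11 °C, x axis) for each of the 60 peaks, by gene (y axis) and class, with filled circles for peaks with an FDR under 0.05. The kis peak at 1.23 stands apart on the right, and the 3 called peaks of histone enzyme genes all lie left of 0.

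The median difference over the 60 peaks was -0.08, with quartiles of -0.21 and 0.06, beside a median of -0.02 over all 8069 peaks, with quartiles of -0.17 and 0.16. Of the 60 peaks, 40 (66.7%) had more reads at 11 °C, against 53.3% of all peaks. A difference of less than 0.2 was seen at 37 (61.7%), near the 57.2% of all peaks. Read concentration moved with this. Of the 60 peaks 21 lay in the highest of 4 equal bins of the table by mean reads and 9 in the lowest, and the median peak of the group held 213 reads against 163 over all peaks. In the highest bin of the whole table, 78 of 2017 peaks (3.87%) were called higher at 25 °C and 257 (12.7%) at 11 °C, with a median difference of -0.09. The 21 peaks of the chromatin regulators in that bin had 1 (4.76%) and 5 (23.8%) calls and a median of -0.13. In the lower bins, from the lowest up, their 9, 8 and 22 peaks had 1, 1 and 0 calls for 25 °C. The shares of all peaks there were 24.2%, 12.6% and 7.93%. For 11 °C they had 1, 0 and 2 calls, against 7.83%, 11.1% and 8.38% of all peaks. The part of read concentration in the direction of the differences was not tested.

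Counted by gene, 8 of the 34 with a peak (23.5%) had at least 1 called, against 22.5% of the 9364 genes with a peak in reach. For 25 °C it was 3 genes (8.82%) against 12.6%, and for 11 °C 6 genes (17.6%) against 11.1%, with osa counted in both. Of 22 genes with exactly 1 peak, 3 had it called (13.6%), against 15.3% of such genes in the table. Neither the share of called genes nor that of genes with 1 peak lay far from the background.

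**Figure D2:**
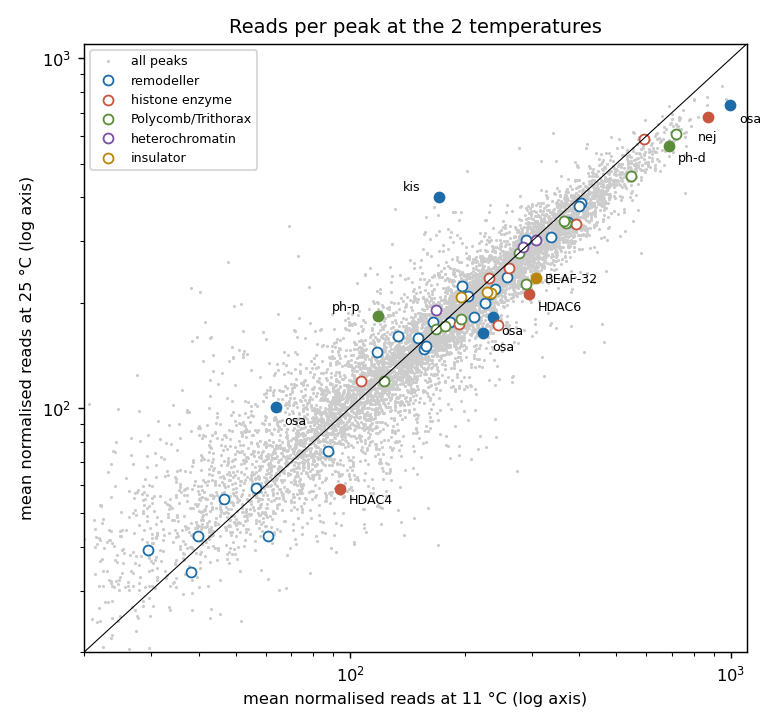
Mean normalised reads per peak at 11 °C (x axis) and 25 °C (y axis), both on log axes from 20 reads up, with all peaks in grey, the 60 peaks coloured by class and filled where the FDR was under 0.05. The black line marks equal reads. The called peaks of osa, nej and ph-d at the upper right lie below the line, and kis lies above it.

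Remodeller genes held 31 peaks, 2 of them (6.45%) higher at 25 °C and 3 (9.68%) at 11 °C, all at kis and osa. The shares of all peaks were 12.2% and 10.0%. The median difference of the class was -0.07. The gene kis encodes Kismet, an ATP-dependent CHD-family remodeller of the Trithorax group. It spans 40.1 kb of chromosome arm 2L (dm6, 210735 to 250823) and held 6 peaks. One of them, inside the gene at 221965 to 222365 and 11430 bp from its lower coordinate end, had 402 reads at 25 °C and 171 at 11 °C, a 2.35-fold difference. In the authors' deposited table this peak has a log2 fold change of 1.21 and an FDR of 2.61e-27, the rank 13 of all 8069 peaks by FDR. The other 5 kis peaks had differences of -0.22 to 0.29 and none was called. The nearest of these to the called peak lies at 220459 to 220859 and had 144 reads at 25 °C and 118 at 11 °C (FDR 0.0853 in the authors' deposited table). The change at kis was thus confined to 1 of its 6 listed peaks at this threshold.

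The gene osa encodes the ARID-domain subunit that defines one form of the Brahma (SWI/SNF) complex. Each of its 4 peaks, all inside the gene on 3R (17687818 to 17718350), was called. The peak at 17700763 to 17701163 had 738 reads at 25 °C and 993 at 11 °C, and it ranked 2 of all 8069 peaks by mean reads. It was 1.35-fold higher at 11 °C (FDR 0.000128 in the authors' deposited table). The peak at 17703221 to 17703621 had 182 reads at 25 °C and 237 at 11 °C, and that at 17713053 to 17713453 had 163 and 223. These were 1.30-fold and 1.37-fold higher at 11 °C, and the authors' deposited table gives FDR 0.00982 and 0.00129. The peak between them, at 17706647 to 17707047, went the other way, with 101 reads at 25 °C and 63.7 at 11 °C. It was 1.58-fold higher at 25 °C (FDR 4.42e-05 in the authors' deposited table). The peaks at 17700763 and 17703221 also lie within 1 kb of the long noncoding RNA genes lncRNA:CR46036 and lncRNA:CR46035. Without osa the 36 genes would have 2 peaks higher at 25 °C and 5 at 11 °C.

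**Figure D3:**
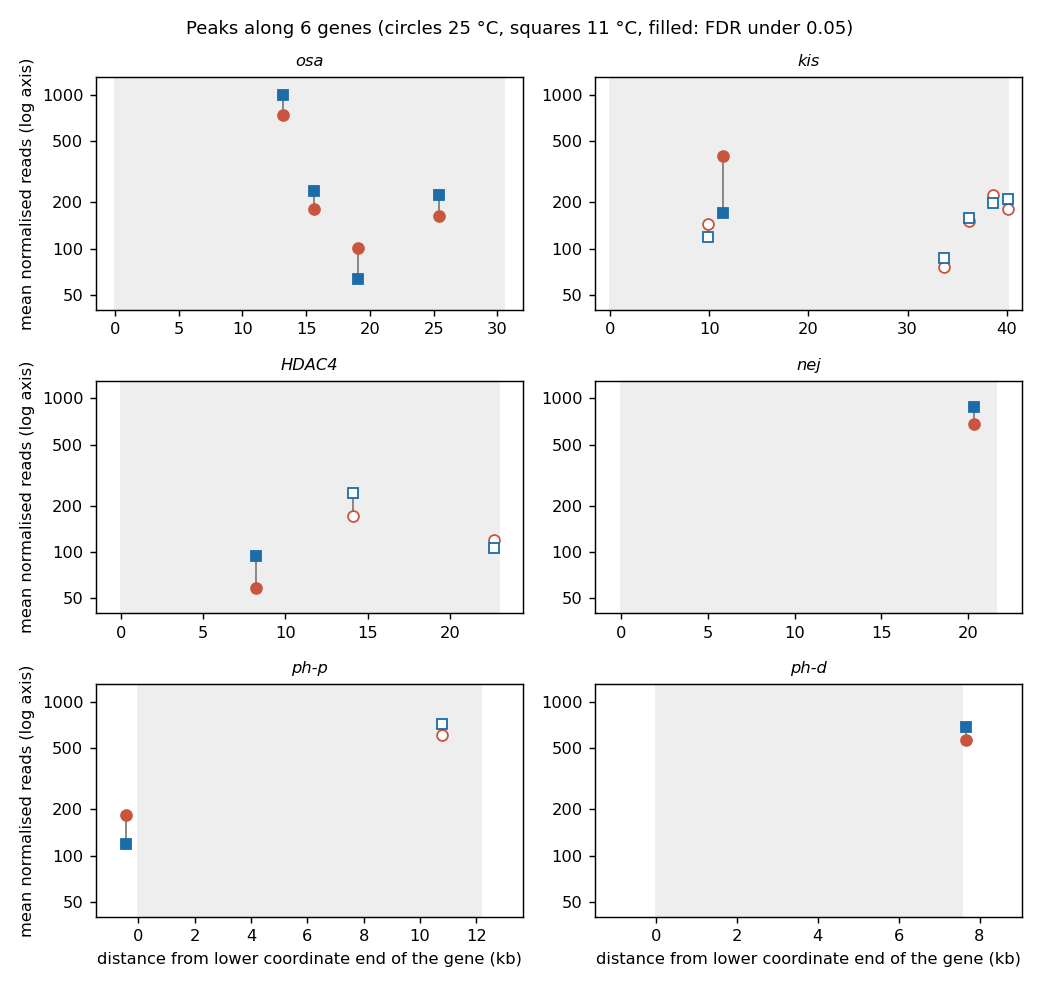
Mean normalised reads (y axis, log axis) of each peak of osa, kis, HDAC4, nej, ph-p and ph-d by distance in kb from the gene's lower coordinate end (x axis), with the gene span in grey, circles for 25 °C, squares for 11 °C and filled symbols for an FDR under 0.05. At osa 3 peaks are higher at 11 °C and 1 is higher at 25 °C, while at kis 1 of 6 peaks is filled.

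In the main gene list, without the second list described below, no Brahma complex gene other than osa had a call. The gene brm, which encodes the ATPase, held 3 peaks with differences of -0.08 to 0.27. The largest, at 15976793 to 15977193 on 3L, had 161 reads at 25 °C and 133 at 11 °C. Its FDR of 0.0619 in the authors' deposited table was the lowest of any uncalled peak of the class. The single peak of Snr1 had 200 reads at 25 °C and 225 at 11 °C, and that of Bap60 had 302 and 290. The HMG-domain subunit gene Bap111 had 159 and 151 reads at one end and 176 and 182 at the other. Among these subunit genes, then, osa alone had called peaks, while mor had no listed peak.

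The remaining remodeller genes likewise had no called peak. Iswi, the ATPase gene of several nucleosome-spacing complexes, had 210 reads at 25 °C and 203 at 11 °C. Acf, which encodes a partner of Iswi, had 220 and 240. Chd1, a remodeller gene tied to transcription elongation, held 3 peaks with differences of -0.14 to 0.24. The gene dom, whose product exchanges histone variants, held a strong peak at its lower end with 341 reads at 25 °C and 374 at 11 °C, and 3 weak ones with 29.5 to 42.8 reads at either temperature. All 5 peaks of Mi-2, the ATPase gene of the NuRD complex, had more reads at 11 °C, with differences of -0.50 to -0.07. The largest of these differences lay at a weak peak 351 bp outside the gene, with 43.0 reads at 25 °C and 60.9 at 11 °C (FDR 0.0764 in the authors' deposited table). The other 4 Mi-2 peaks also lie within reach of the gene Su(Tpl), and 2 of them rank 546 and 590 of all peaks by mean reads.

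Genes of histone enzymes held 10 peaks, of which 3 were higher at 11 °C and 0 at 25 °C, with a median difference of -0.18. At an unadjusted p, the 60 peaks of all classes together had 5 under 0.05 with more reads at 25 °C and 12 with more at 11 °C. The same count was not made over all 8069 peaks, so these numbers have no background beside them. HDAC4 encodes a class II deacetylase that in flies and mammals links nutrient signals to transcription. Its peak inside the gene on X, at 13270706 to 13271106, had 58.5 reads at 25 °C and 93.8 at 11 °C, 1.60-fold higher in the cold (FDR 0.00031 in the authors' deposited table). A stronger peak at 13276590 to 13276990 had 173 and 244 reads, in the same direction but not called (FDR 0.0802 in the authors' deposited table). The remaining HDAC4 peak, near its upper end, had 119 and 107.

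HDAC6 encodes a largely cytoplasmic deacetylase whose known substrates include tubulin. Its peak at 15335140 to 15335540 on X, inside the gene, had 211 reads at 25 °C and 294 at 11 °C. It was 1.39-fold higher at 11 °C (FDR 0.00938 in the authors' deposited table), and an antisense RNA gene, asRNA:CR44998, lies within reach of it. The HDAC6 peak at the gene's lower end had 337 and 391 reads and was not called. The gene nej encodes the fly's CBP, a histone acetyltransferase and coactivator at enhancers and promoters. Its single peak, at 9685569 to 9685969 on X and 1297 bp inside the upper end, had 679 reads at 25 °C and 872 at 11 °C, and ranked 6 of all peaks by mean reads. It was 1.28-fold higher at 11 °C (FDR 0.000899 in the authors' deposited table), and no other gene lies within 1 kb.

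The other 4 enzyme genes had 1 peak each and no call. Sirt1, an NAD-dependent deacetylase gene, had one of the strongest peaks of the table, rank 81, with 589 reads at 25 °C and 591 at 11 °C. HDAC1, the main class I deacetylase gene, had 251 and 261, HDAC3 had 235 and 232, and the acetyltransferase gene Gcn5 had 174 and 193. The peaks at Sirt1, HDAC1 and HDAC3 thus had nearly equal means, although without a standard error no interval can be put on these differences.

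Polycomb and Trithorax genes held 12 peaks, 10 of them (83.3%) with more reads at 11 °C, against 53.3% of all peaks. Only 1 was called in that direction and 1 in the other (8.33% each), against 10.0% and 12.2% of all peaks. The median difference of the class was -0.11. Both calls fell at the adjacent gene pair ph-d and ph-p, which encode closely related Polyhomeotic subunits of the Polycomb complex PRC1. The peak at the upper end of ph-d, at 2123193 to 2123593 on X, had 562 reads at 25 °C and 687 at 11 °C. It was 1.22-fold higher at 11 °C (FDR 0.0419 in the authors' deposited table) and ranked 53 of all peaks by mean reads. Between the genes, 2374 bp further on and 443 bp outside ph-p, the peak at 2125567 to 2125967 had 183 reads at 25 °C and 119 at 11 °C. It was 1.54-fold higher at 25 °C (FDR 0.00062 in the authors' deposited table). The gap between the pair, 2.92 kb long, therefore held 2 called peaks of opposite direction. Another strong peak, 1385 bp inside the upper end of ph-p, had 606 and 718 reads and was not called (FDR 0.124 in the authors' deposited table). Since ph-d and ph-p are near-identical copies in part, reads may be assigned between them with error. The sources used here do not give the treatment of multiply mapped reads.

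At the other PRC1 genes of the main gene list, Psc had a strong peak with 461 reads at 25 °C and 546 at 11 °C. This peak was just short of a call (FDR 0.0716 in the authors' deposited table), while Pc had 168 reads at both temperatures. In that list, without the second list described below, the genes of PRC2, the methyltransferase complex of Polycomb, had no call. E(z), its catalytic subunit gene, had 227 reads at 25 °C and 290 at 11 °C, and with an FDR of 0.23 in the authors' deposited table a difference of -0.35 did not pass. Su(z)12 had 278 and 277, and esc had 119 and 123. Of the Trithorax group, ash1, a histone methyltransferase gene, had 179 and 196 reads at its upper end and 172 and 177 at its lower. Trl, which encodes the GAGA factor, had 338 and 370 at one peak inside the gene and 342 and 365 at another. The differences at ash1 and Trl lay between -0.13 and -0.04.

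Heterochromatin genes had 3 peaks, 1 for each gene, and none was called, against 22.2% of all peaks. All 3 lie just outside a gene end and also within reach of other genes. Su(var)205, which encodes HP1a, had 190 reads at 25 °C and 168 at 11 °C. Su(var)3-9, the gene of a histone methyltransferase whose mark HP1a binds, had 289 and 284. Su(var)3-7, a zinc finger protein gene, had 303 and 307. The lowest FDR of the class was 0.298 in the authors' deposited table, at Su(var)205, and none of the 3 had an unadjusted p under 0.05. A called peak higher at 11 °C lies just beyond the window at Su(var)3-7, so the class had 1 call with a window of 2000 bp.

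Insulator genes had 4 peaks, 1 each, and 1 was called (25%), against 22.2% of all peaks. BEAF-32 encodes a DNA-binding boundary protein found mostly at promoters. Its peak on 2R, at 14770735 to 14771135 and 466 bp inside the lower end of the gene, had 235 reads at 25 °C and 307 at 11 °C. It was 1.31-fold higher at 11 °C (FDR 0.000536 in the authors' deposited table). The antisense gene asRNA:CR42254 lies within reach. CTCF had 207 and 196 reads, su(Hw) had 213 and 234, and Cp190, the gene of a cofactor that other insulator proteins recruit, had 214 and 228. Their differences lay between -0.13 and 0.08, with FDR of 0.542 to 0.773 in the authors' deposited table.

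Called peaks lay mostly away from the ends of their own gene. Of 34 peaks within 500 bp of an end of their gene, 3 were called, and of the 26 others, 8. With location defined by the ends of any annotated gene, so that the whole table can be set beside it, 5 of 40 peaks at gene ends were called (12.5%), against 15.3% of all gene-end peaks. In gene bodies it was 6 of 20 (30.0%), against 33.0% of all gene-body peaks. The shares of the chromatin regulators were thus close to the background in each location. Of 11 genes over 10 kb with a peak, 5 had a called one (45.5%), against 48.5% of all such genes, and of 23 shorter ones 3 did (13.0%), against 17.7%. By gene length, too, the shares were close to the background. By arm, 0 of the 18 peaks on 3L were called, against 22.2% of all peaks there. On X it was 5 of 12, against 23.1%, and on 3R 4 of 11, all at osa, against 21.7%. Those on X lay at HDAC4, HDAC6, nej, ph-p and ph-d. They were all the calls of the histone enzyme and the Polycomb and Trithorax genes, so arm and class cannot be told apart for them. The numbers per arm are small and were not tested.

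**Figure D4:**
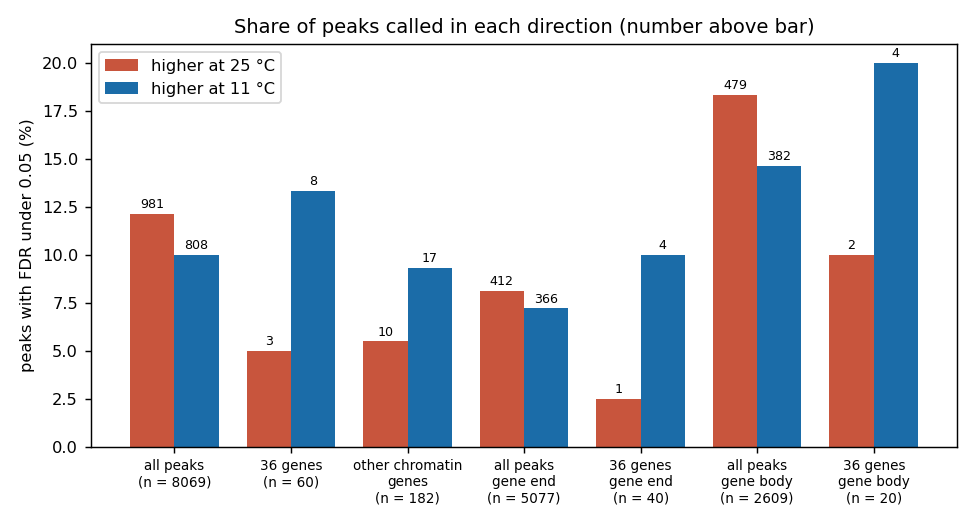
Percent of peaks with an FDR under 0.05 (y axis) that were higher at 25 °C or at 11 °C, for all peaks, the 36 genes and 125 other chromatin genes, and by location. Numbers above the bars count the called peaks. For the 36 genes the 25 °C bar is 5% and the 11 °C bar 13.3%.

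Most of these peaks cannot be tied to 1 gene. Of the 60, 47 (78.3%) lie within reach of at least 1 further gene, against 57.5% of all peaks, and 39 within reach of another protein-coding gene. Of the 11 called peaks, 4 are shared, each with a noncoding RNA gene, and the other 7 lie within reach of no other gene. Snr1 and HDAC3, which are 56 bp apart, and the pairs Mi-2 and Su(z)12, Su(var)3-9 and Cp190, and ph-d and ph-p, each under 10 kb apart, are also neighbours of one another. Of the 60 peaks, 26 lie outside the gene and were counted through the window of 1 kb, among them the called peaks of ph-p and ph-d. The outermost was that of ph-p at 443 bp. The first outside was 1038 bp from Su(var)3-7, with 133 reads at 25 °C and 177 at 11 °C, and it was called (FDR 0.014 in the authors' deposited table). The next was 1050 bp from BEAF-32, with 169 and 185 reads, and was not called. Beyond these, a peak 1817 bp from HDAC1 had 91.6 reads at 25 °C and 65.4 at 11 °C and was called (FDR 0.0157 in the authors' deposited table).

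A second list of other chromatin genes was counted in the same way. It had 127 entries in the same 5 classes and a class of histone variants and chaperones, and 125 matched a gene. Of these, 114 had a peak, which was called in favour of 25 °C at 6 genes and in favour of 11 °C at 15. Over all 9364 genes with a peak in reach, the shares were 12.6% for 25 °C and 11.1% for 11 °C. Among the 182 peaks of the 114 genes, 10 (5.49%) were called in favour of 25 °C and 17 (9.34%) in favour of 11 °C. The shares of all peaks were 12.2% and 10.0%. The median difference of the 182 peaks was -0.05. The most changed peaks in favour of 11 °C lay at tou, which encodes a Toutatis remodelling factor, with 83.9 reads at 25 °C and 172 at 11 °C at one peak and 42.9 and 81.5 at another. The other called tou peak went the other way, with 269 reads at 25 °C and 205 at 11 °C. In favour of 25 °C the most changed lay at simj, a gene of the NuRD complex, with 241 and 118 reads, and beside HDAC11, a deacetylase gene, with 56.2 and 29.3. All of these were called in the authors' deposited table, the HDAC11 peak also lying near the gene CAH4.

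The fat body label was checked against marker genes. Of 15 fat body markers 14 had a listed peak, all but Fbp1, and their 42 peaks summed to 10921 reads at 25 °C and 9412 at 11 °C. Of these peaks, 8 (19.0%) were called in favour of 25 °C, at apolpp, Yp1 and Yp3, against 12.2% of all peaks. In favour of 11 °C it was 3 (7.14%), at Lsd-2, srp and Lsp1beta, against 10.0%. The median difference of the 42 was 0.01, so the markers did not all go the way of the sum. Of 8 muscle markers 3 had a peak, of 6 hemocyte markers 2, of 5 neuron markers 3, of 3 tracheal markers 1, and of 6 germline and follicle cell markers 2. Called in favour of 25 °C were 1 of 4 muscle peaks, at Mhc, and 1 of 3 hemocyte peaks, at crq. In favour of 11 °C were 1 of 4 neuron peaks, at elav, and the 1 tracheal peak, at trh. All hemocyte, neuron and germline peaks and 2 of the muscle peaks also lie within reach of another gene. Oenocytes are lipid-processing cells that lie next to the fat body, and 4 of their 5 markers had a peak, all but Desat2. Among their 8 peaks, 5 were called in favour of 25 °C and 0 in favour of 11 °C, with a summed 1373 reads at 25 °C and 1048 at 11 °C. One uncalled peak of the 8 lies between FASN2 and the fat body marker FASN1 and was counted for both. It supplied 377 of the summed reads at 25 °C and 359 at 11 °C to each cell type. The part of such other cells in the differences at the chromatin regulators was not tested.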

How the data were processed

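The labels list 16 libraries in 4 groups of 4, but the values used are temperature means from 1 table. The submitters' processing notes name DiffBind, MACS2, Bowtie2, bedtools, Picard, SAMtools, cutadapt, Trim Galore and FastQC, without versions or roles, and the dm6 build. Read shifting, duplicates, multiply mapped reads, the peak set and scaling are not given in the sources used here. Per the file headers, the authors deposited log2 mean normalised reads per peak and temperature, a fitted log2 fold change, a p-value and its FDR. The deposited p-values, adjusted by Benjamini-Hochberg over 8069 peaks, gave the FDR. The fitted fold change had a slope of 0.806 on the difference of means, so it is smaller, and its sign differed in 256 peaks, none called. In 3446 of 3457 peaks with means over 0.2 (log2) apart, the weight of 25 °C was 0.429 within 1e-06.

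Python 3.11.15 with pandas 2.3.3 computed differences, folds, counts and medians. No model was refitted and no set test made. Gene spans came from RefSeq (Release 6 plus ISO1 MT), without strand or exons. All 36 genes matched by symbol. Of the second list 123 matched by symbol, 2 by synonym and 2 not at all, and of 48 markers 46, 1 and 1. The genes and lists were chosen with earlier results of these data known. Each called peak, the uncalled peaks of lowest FDR per class and the most changed called peaks of the second list are named by rule. The tou peak higher at 25 °C was named after its values were seen. Peak assignment was tested on simulated data. Promoter sequences and motifs, which were planned, were not analysed here.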

Additional observations from a re-analysis of the deposited data

How the results depend on the processing

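Of the counts over the 36 genes, 3 peaks at 3 genes higher at 25 °C and 8 peaks at 6 genes higher at 11 °C, most stayed within 1.5 times under the alternatives tried. With an FDR under 0.1 the peaks higher at 25 °C numbered 5. With only the 13 peaks in reach of no other gene, the peaks higher at 11 °C numbered 4 and the median difference was -0.24, against -0.08. As shares, 30.8% of the 13 were higher at 11 °C and 23.1% at 25 °C, against 13.3% and 5% of the 60. The share over all peaks in reach of no other gene was not counted. With Bonferroni adjustment of the deposited p-values, 0 peaks and 0 genes were higher at 11 °C, and 2 peaks stayed higher at 25 °C. At an unadjusted p under 0.05 it was 12 peaks for 11 °C and 5 for 25 °C, without a count over all peaks beside them. Without osa, an alternative chosen after seeing the data, 5 peaks were higher at 11 °C. Other alternatives were an FDR under 0.01, windows of 0 and 2000 bp, any overlap, and leaving out the lowest of 4 bins by reads. They gave 2 to 4 peaks for 25 °C and 7 to 9 for 11 °C. A window of 500 bp held the same 60 peaks, so it could not change the counts. The authors' fitted fold change keeps the same FDR and no called peak differed in sign, so it could not change them either. Without a window the Polycomb and Trithorax genes had 0 calls in either direction. With 2000 bp the histone enzyme genes gained 1 peak for 25 °C and the heterochromatin genes 1 for 11 °C, the latter also with any overlap. The median difference was negative under every alternative tried. The causes were not tested, beyond the smaller number of peaks or the stricter threshold that each alternative itself brings. No paired analysis was possible because the deposited values are means per temperature, and for the same reason no replicate could be left out and no interval for depth given.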
